A study of Mus musculus with 6 samples.

Results

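The Slc25 genes encode the mitochondrial carriers, the protein family that moves metabolites, nucleotides and cofactors across the inner mitochondrial membrane. Members were taken as every gene line of the count table whose symbol is Slc25a followed only by a number, which gave 47 of 45808 gene lines. Their RNA was followed in stromal-vascular cells of mouse inguinal white fat at 3 stages of beige adipocyte induction in culture, with 2 libraries a day. All libraries are labelled WT and came from male mice aged 8 weeks, and no mutant library enters the comparisons. Day 0 cells were confluent and had received no induction. Day 2 cells had spent 2 days with IBMX, a phosphodiesterase inhibitor (0.5 mM), dexamethasone, a glucocorticoid (5 µM), indomethacin (125 µM), rosiglitazone, an agonist of PPAR gamma (1 µM), insulin (850 nM) and T3, a thyroid hormone (1 nM). Day 6 cells had the same 2 days and were then kept on insulin, T3 and rosiglitazone at those doses. The libraries of each day carry the numbers 76 and 77, and values are given in that order. The fraction is a mixed primary culture, and the labels name no sorting step. The labels say biological replicates without naming the animals or cultures behind them, so p-values here reflect no more than how much these libraries vary.

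Each carrier exchanges or imports a narrow set of substrates, and the inner membrane has few other routes for them. ADP/ATP and phosphate carriers feed ATP synthase and export its product. Citrate export supplies cytosolic acetyl-CoA for fatty acid synthesis, and acylcarnitine import supplies fatty acyl groups for oxidation, both prominent in adipocytes. The uncoupling protein of brown and beige fat, Ucp1, belongs to the same protein family under another symbol.

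Levels are given as CPM, gene counts scaled to TMM-adjusted library totals, and levels of different carriers are compared as CPM per kb of exon. Exon length is the union of all annotated exons of a gene, 5550 bases for Slc25a3 and 1646 for Slc25a5. It can exceed the length of the transcripts present, so ranks, shares and ratios between genes depend on the annotation. Gene counts were 22522221 to 29458374 per library. The summed level of 7 adipocyte markers averaged 101 CPM at day 0, 3666 CPM at day 2 and 28187 CPM at day 6. That of 7 adipose progenitor markers averaged 1977, 1300 and 924 CPM. All 14 had counts in some library, Lep only at day 6 (mean 0.142 CPM). Fabp4 was the largest adipocyte marker on each day, with means of 48.6, 3019 and 18126 CPM. Against the sums, Cfd was lower at day 2 than at day 0 (10.3 and 23.9 CPM). The progenitor markers Ly6a (652 and 560 CPM) and Pi16 (20.5 and 16.5 CPM) were higher at day 2 than at day 0, and the other progenitor markers were lower. At days 0, 2 and 6, sums for the other lists averaged 127, 38.3 and 115 CPM for mural cells (7 genes, Higd1b at 0), 32.0, 6.34 and 14.0 CPM for endothelium (7 genes), 40.4, 38.7 and 83.6 CPM for macrophages (7 genes), 35.8, 8.05 and 11.4 CPM for skeletal muscle (7 genes) and 18.0, 4.17 and 29.6 CPM for Schwann cells (6 genes). Each of these mean sums was lowest at day 2, the macrophage sum by less than the spread between its libraries. The macrophage sum was 118 and 49.5 CPM in the 2 day 6 libraries. Genes of the mitochondrial genome held 0.502% and 0.555% of gene counts at day 0, then 1.13% and 1.29% at day 2, and 3.88% and 3.14% at day 6. The adipocyte sum and the mitochondrial-genome share were higher at each later day, as most carriers described below were, and the part of all these values in the results was not tested. In bulk RNA, more cells of a type and more RNA per cell cannot be told apart.

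The family as a whole took a larger share of the RNA at each later day. Its 47 genes held 0.187% and 0.194% of gene counts at day 0, then 0.350% and 0.335% at day 2, and 0.617% and 0.577% at day 6. Summed per length, the family stood at 589 and 609 CPM per kb at day 0, then 1055 and 1011 at day 2, and 2555 and 2263 at day 6. The 3 days did not overlap in either sum. With 2 libraries a day, lack of overlap says little, here and below. Slc25a14, which no comparison called, did not overlap between days 0 and 2 either.

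Of the 41 members with enough counts to be tested, 34 differed between days in a joint edgeR quasi-likelihood test at an adjusted p of 0.05, the threshold used throughout; 84.8% of all 14459 genes tested did so. At day 2 against day 0, 25 members were higher and 8 lower, where 33.6% of all genes tested were higher, 33.6% were lower and 67.1% were called in either direction. At day 6 against day 0, 28 members were higher and 5 lower, against 35.9% and 35.1% of all genes, with 70.9% called either way. At day 6 against day 2, 25 members were higher and 6 lower, against 38.2% and 27.5% of all genes, with 65.7% called either way. As shares of the 41 tested, 61.0%, 68.3% and 61.0% of members were called higher in the 3 comparisons, in the order given.

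The size of the changes leaned the same way. Over 2-fold, 22 members were higher and 3 lower at day 6 against day 0, where 18.5% and 18.4% of all genes were. At day 2 against day 0 the numbers were 11 and 4, where 12.3% and 17.9% of all genes were. At day 6 against day 2 they were 17 and 0, where 19.2% and 10.4% of all genes were. The median log2 change over the tested members was 0.48 at day 2 against day 0, 1.37 at day 6 against day 0 and 0.73 at day 6 against day 2, beside 0.00, -0.01 and 0.12 over all genes tested. The 3 comparisons share their libraries and are not independent of each other. With DESeq2, 25 members were higher and 4 lower at day 2 against day 0, and with library totals as the scaling 19 were higher and 8 lower at day 6 against day 2. Leaving out single libraries left 21 to 26 members higher at day 2 against day 0, and the 8 lower became 3 without library 77 of day 0, 5 without library 76 of day 0 and 4 without library 76 of day 2. Without a library, 26 to 28 were higher and 4 to 5 lower at day 6 against day 0.

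By course, 20 members were higher at each later day. They included both ADP/ATP carriers, the phosphate carrier, the citrate, dicarboxylate and oxoglutarate carriers, the acylcarnitine carrier and 6 of the 7 cofactor carriers. The share of all genes tested that took this course was not counted, so whether it is particular to the family is not known. With library totals as scaling, the step at day 6 against day 2 was lost for Slc25a3 (edgeR adjusted p = 0.136), Slc25a4 (0.674), Slc25a17 (0.212) and Slc25a33 (0.101). Another 3, Slc25a28, Slc25a30 and Slc25a32, peaked at day 2. Slc25a12 and Slc25a13, the aspartate/glutamate carriers, were lower at each later day, and Slc25a24 and Slc25a43 were lower at both later days than at day 0. Slc25a37 was lower at day 6 alone. No comparison called Slc25a14, Slc25a29, Slc25a38, Slc25a47 or Slc25a53.

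**Figure D1:**
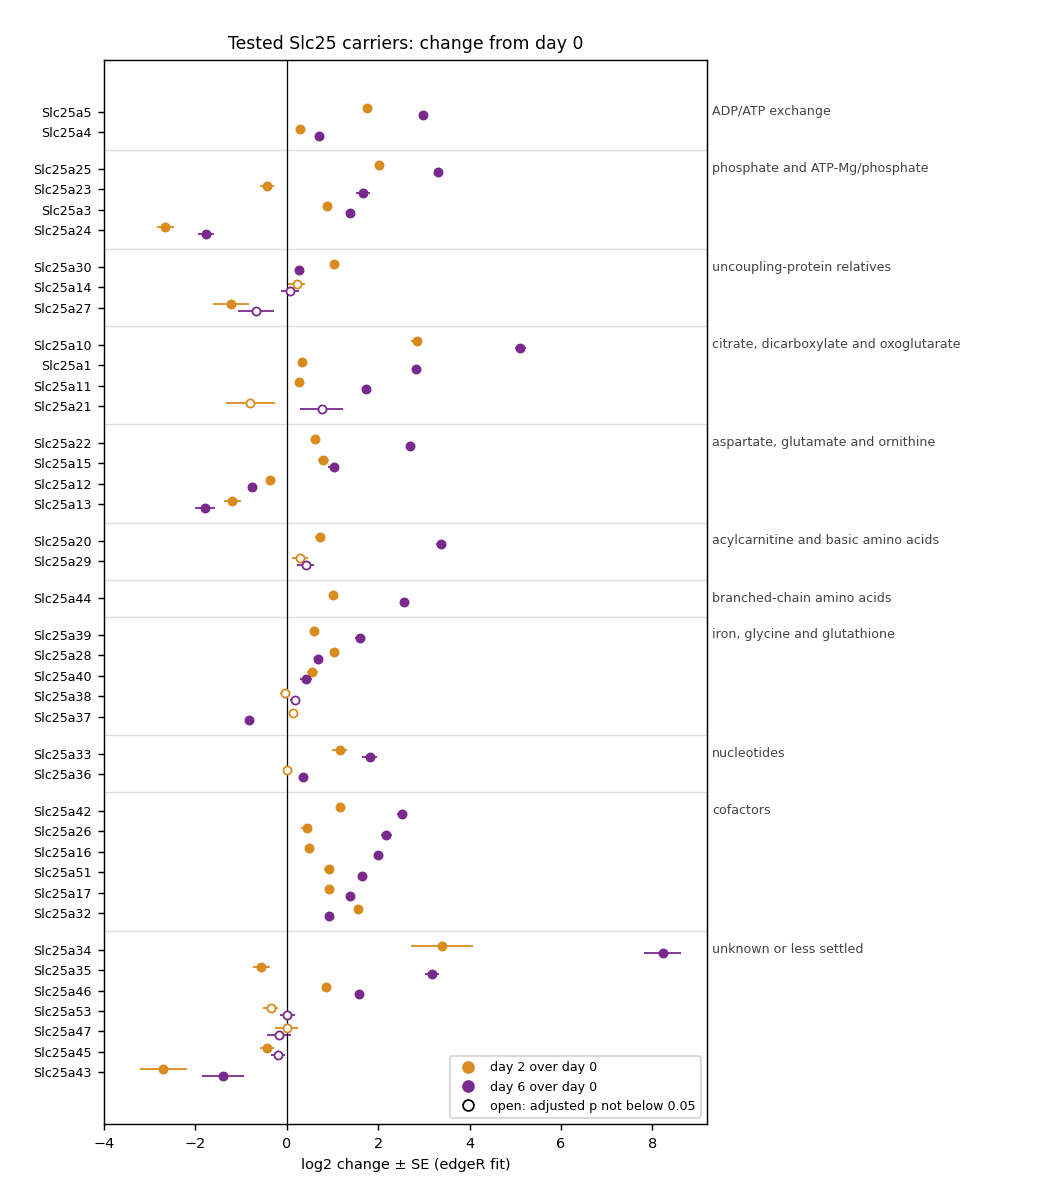
Fitted log2 change of the tested Slc25 genes reported here (x axis, with bars of 1 standard error) at day 2 over day 0 (orange) and at day 6 over day 0 (purple), grouped by transported substrate down the page. Open symbols did not pass an adjusted p of 0.05. Slc25a34 lies farthest right at 8.22 and Slc25a43 and Slc25a24 farthest left, at -2.70 and -2.66 at day 2.

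Promoter sequence is shown for 4 of the members that were higher at day 6 and whose window held a searched motif. RefSeq windows of 250 bases before to 50 after the start were at hand for 36 members (GRCm38.p6), and 6 motifs were searched on both strands. CCGGAAG, the core bound by GABP, a regulator of nuclear genes for mitochondria, occurred in 7 of the 36 members (19.4%) and in 9.93% of 27025 genes. The NRF1 site, GCGCA and GCGC around 1 free base, occurred in 2 members (5.56%) against 5.19% of genes, and the cyclic AMP response element TGACGTCA in 2 (5.56%) against 2.03%. The extended half-site of the estrogen-related receptors, TNAAGGTCA, and the direct repeat of AGGTCA around 1 free base, with which it shares AGGTCA, occurred in 0 members, against 1.43% and 0.0481% of genes. The sterol regulatory element TCACNCCAC occurred in 1 member, Slc25a18, against 1.44% of genes. CCGGAAG also lay in Slc25a4 and TGACGTCA in Slc25a36, both higher at day 6 than at day 0 and not shown. In Slc25a25, CCGGAAG lay in a different window from the one shown, 7 bases after the start of that window's transcript. For the Slc25a25 start shown, the end of the window was not found in annotated transcripts of the gene. For the other genes shown it was found. CCGGAAG was found as well in Slc25a38, which no comparison called, and in Slc25a54, too low to be tested. The other member with an NRF1 site, Slc25a31, and Slc25a18 were also too low to be tested. A match is a description of letters and not a measured binding site, and a link between motifs and changes was not tested. The sequences run 5′ to 3′ on the strand of the gene, stop where annotated exons begin and carry motif matches in capitals: CCGGAAG in the first 3, the NRF1 site also in Slc25a3, and TGACGTCA in Slc25a25.
Slc25a3 (chr10:91124060-91124217, minus strand): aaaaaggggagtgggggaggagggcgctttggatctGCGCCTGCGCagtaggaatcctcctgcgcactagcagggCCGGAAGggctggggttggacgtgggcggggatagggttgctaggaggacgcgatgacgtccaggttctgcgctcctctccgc
Slc25a17 (chr15:81360813-81361015, minus strand): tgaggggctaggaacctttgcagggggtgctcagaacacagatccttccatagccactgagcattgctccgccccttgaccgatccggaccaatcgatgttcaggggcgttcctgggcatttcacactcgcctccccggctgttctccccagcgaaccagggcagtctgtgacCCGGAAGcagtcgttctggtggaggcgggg
Slc25a20 (chr9:108661886-108662087, plus strand): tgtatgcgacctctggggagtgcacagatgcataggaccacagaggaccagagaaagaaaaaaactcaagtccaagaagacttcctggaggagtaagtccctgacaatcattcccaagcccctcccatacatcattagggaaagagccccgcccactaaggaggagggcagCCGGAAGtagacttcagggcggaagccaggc
Slc25a25, an internal start (chr2:32424067-32424316, minus strand): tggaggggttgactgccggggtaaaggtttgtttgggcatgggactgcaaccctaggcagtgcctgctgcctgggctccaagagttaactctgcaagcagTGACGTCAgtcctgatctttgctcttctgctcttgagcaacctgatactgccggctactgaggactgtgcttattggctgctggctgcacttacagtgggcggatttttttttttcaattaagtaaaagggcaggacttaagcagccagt

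The ADP/ATP carriers, which exchange cytosolic ADP for matrix ATP, changed rank. Slc25a4 (ANT1; chr8:46206797-46211284, minus strand, on GRCm38) had 183 and 191 CPM per kb at day 0, 235 and 224 CPM per kb at day 2, and 321 and 287 CPM per kb at day 6. Slc25a5 (ANT2; chrX:36795651-36798807, plus strand) had 81.0 and 87.7 CPM per kb at day 0, 292 and 278 CPM per kb at day 2, and 712 and 628 CPM per kb at day 6. Per length, Slc25a4 was thus the more abundant at day 0 and Slc25a5 at days 2 and 6, with no overlap of libraries on any day. The ratio of Slc25a5 to Slc25a4 per length was 0.443 and 0.459 at day 0, then 1.24 in each library of day 2, and 2.22 and 2.19 at day 6. Slc25a5 was 7.94-fold higher at day 6 than at day 0 (log2 2.99, SE 0.10, edgeR adjusted p = 8.44e-08). Slc25a4 was 1.63-fold higher at day 6 than at day 0 (log2 0.70, SE 0.09, edgeR adjusted p = 0.000157). Slc25a5 shares 33.8% of its 50-base stretches with the annotated copies Gm5560, Gm5529, Slc25a5-ps and Gm5256, and reads that aligned to several places were set aside by the counting (4.16% to 9.05% of alignments, most at day 6), so its level is uncertain. The day 2 change of Slc25a4 was smaller, 1.23-fold (edgeR adjusted p = 0.0181), and was not called without library 76 of day 0 (adjusted p = 0.121) or of day 2 (0.111). Its change at day 6 against day 2, 1.32-fold (edgeR adjusted p = 0.00408), was not called without library 77 of day 0 (adjusted p = 0.0628) or with library totals as scaling (0.674). Slc25a31, the testis form, had 0 and 3 counts at day 0 and 0 in the other 4 libraries.

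**Figure D2:**
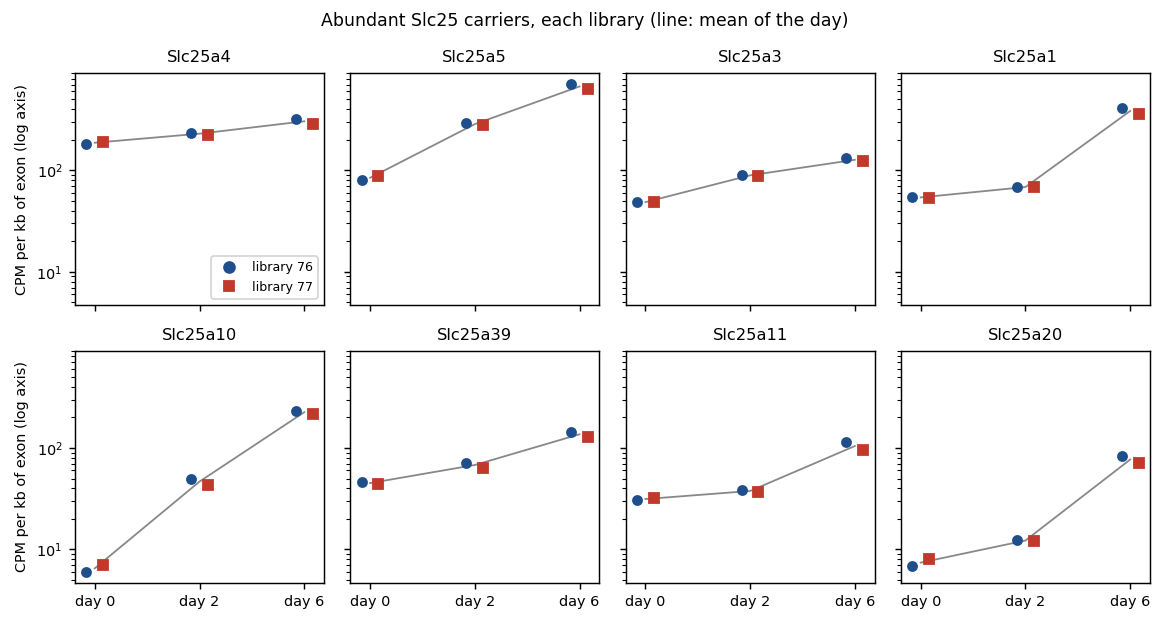
CPM per kb of exon (y axis, log scale) of 8 abundant Slc25 genes at days 0, 2 and 6, with a circle for library 76, a square for library 77 and lines through the day means. Slc25a4 leads at day 0 at 187 CPM per kb, and Slc25a5 leads at days 2 and 6 at 285 and 670 CPM per kb.

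The order of the most abundant members per length changed as well. It depends on the annotated exon lengths. At day 0 Slc25a3 averaged 270 CPM and Slc25a5 139 CPM, the reverse of their order per length. At day 0 the 5 highest per length were Slc25a4 at 187, Slc25a5 at 84.4, Slc25a1 at 54.1, Slc25a3 at 48.6 and Slc25a39 at 45.1 CPM per kb as means of 2 libraries, each apart from its neighbour. At day 2 they were Slc25a5 at 285, Slc25a4 at 230, Slc25a3 at 89.2, Slc25a1 at 68.4 and Slc25a39 at 67.9 CPM per kb, the last 2 overlapping between libraries. At day 6 they were Slc25a5 at 670.2, Slc25a1 at 384, Slc25a4 at 304, Slc25a10 at 225 and Slc25a39 at 136 CPM per kb, with Slc25a39 overlapping the next gene, Slc25a3, at 127 CPM per kb.

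As a share of the family's summed level per length, Slc25a4 fell to 12.6% and 12.7% at day 6, against 31.0% and 31.4% at day 0, while its own level was higher. The share of Slc25a5 was 27.9% and 27.8% at day 6 and 13.8% and 14.4% at day 0. Slc25a1, the citrate carrier, held 16.1% and 15.8% at day 6 against 9.24% and 8.82% at day 0, and Slc25a10 held 9.08% and 9.63% against 1.01% and 1.16%. The ADP/ATP and phosphate carriers Slc25a3, Slc25a4 and Slc25a5 together held 53.0% and 53.8% at day 0, then 58.5% and 58.4% at day 2, and 45.6% and 45.9% at day 6.

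**Figure D3:**
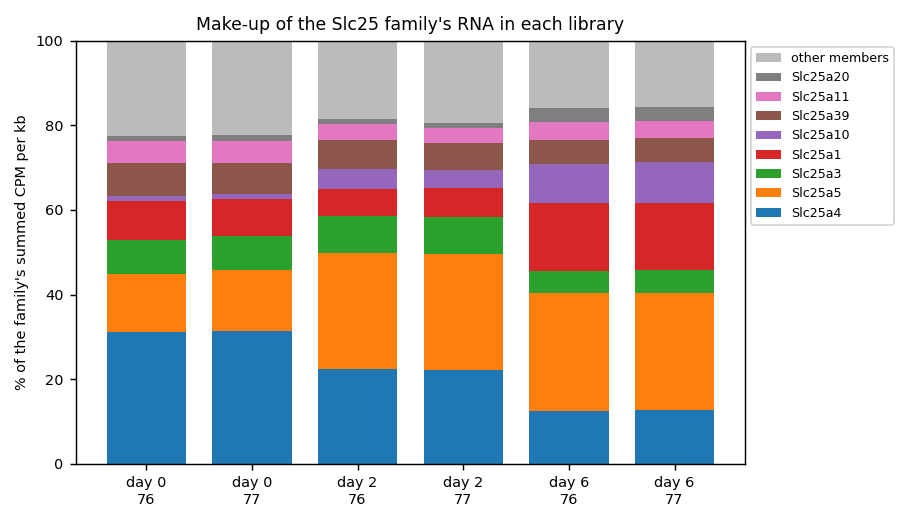
Share of the family's summed CPM per kb (y axis, percent) held by the named carriers in each of the 6 libraries, ordered from day 0 to day 6. The Slc25a4 segment is 12.6% and 12.7% at day 6, against 31.0% and 31.4% at day 0.

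Among the carriers of phosphate and of ATP-Mg for phosphate, the phosphate carrier and the ATP-Mg/phosphate carrier Slc25a25 were higher at each later day, like the ADP/ATP carriers, and Slc25a23 and Slc25a24 were lower at day 2 than at day 0. Slc25a3 (chr10:91116574-91124059, minus strand), which brings in phosphate for ATP synthase, had 268 and 271 CPM at day 0, 501 and 489 CPM at day 2, and 729 and 680.1 CPM at day 6. It was 2.61-fold higher at day 6 than at day 0 (log2 1.39, SE 0.081, edgeR adjusted p = 1.55e-06) and 1.84-fold higher at day 2 than at day 0 (edgeR adjusted p = 2.72e-05). Slc25a24 (SCaMC-1; chr3:109123149-109168457, plus strand), which with its relatives adjusts the adenine nucleotide pool of the matrix, had 42.9 and 47.6 CPM at day 0, 6.80 and 7.51 CPM at day 2, and 10.5 and 16.2 CPM at day 6. It was 6.32-fold lower at day 2 than at day 0 (log2 -2.66, SE 0.18, edgeR adjusted p = 6.09e-06) and 3.40-fold lower at day 6 than at day 0 (log2 -1.77, SE 0.17, edgeR adjusted p = 3.11e-05), with a partial return after day 2 (1.85-fold higher at day 6 than at day 2, edgeR adjusted p = 0.00353). Slc25a25 (SCaMC-2; chr2:32414487-32451445, minus strand) ran the other way, with 13.1 and 12.6 CPM at day 0, 53.9 and 50.4 CPM at day 2, and 129 and 126 CPM at day 6. It was 4.05-fold higher at day 2 than at day 0 (log2 2.02, SE 0.074, edgeR adjusted p = 4.75e-07) and 9.92-fold higher at day 6 than at day 0 (log2 3.31, SE 0.075, edgeR adjusted p = 1.92e-08). The ratio of Slc25a24 to Slc25a25 per length was 7.49 and 8.65 at day 0, then 0.289 and 0.342 at day 2, and 0.187 and 0.293 at day 6.

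Slc25a23 (SCaMC-3) was high only at day 6, with 9.10 and 11.3 CPM at day 0, 7.20 and 7.91 CPM at day 2, and 35.6 and 28.9 CPM at day 6. It was 3.18-fold higher at day 6 than at day 0 (log2 1.67, SE 0.14, edgeR adjusted p = 1.53e-05) and 4.28-fold higher at day 6 than at day 2 (log2 2.10, SE 0.15, edgeR adjusted p = 5.98e-06). Its lower level at day 2 than at day 0, 1.35-fold (edgeR adjusted p = 0.0374), was not called without library 77 of day 0 (adjusted p = 0.579), library 76 of day 2 (0.176) or library 77 of day 2 (0.0807), nor by DESeq2 (0.106). Slc25a41, a relative without calcium regulation, had 0 counts in all libraries. Slc25a54 had 2 and 1 counts at day 0, 1 and 0 at day 2 and 0 in both day 6 libraries.

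Among the relatives of the uncoupling proteins named for brain and kidney, Slc25a14 and Slc25a27 stayed low, while Slc25a30 rose at day 2. None of them was above its day 0 level by 2-fold at day 6. Slc25a30 (KMCP1) peaked at day 2, with 11.4 and 11.7 CPM at day 0, 23.2 and 24.3 CPM at day 2, and 13.9 and 14.0 CPM at day 6. It was 2.06-fold higher at day 2 than at day 0 (log2 1.04, SE 0.09, edgeR adjusted p = 2.09e-05) and 1.70-fold lower at day 6 than at day 2 (log2 -0.77, SE 0.09, edgeR adjusted p = 0.000112). Its day 6 level was 1.21-fold the day 0 level (edgeR adjusted p = 0.0284), a call that was lost when any single library of those days was left out (adjusted p = 0.0548 to 0.129). Slc25a27 (UCP4) had 1.85 and 1.85 CPM at day 0, 0.510 and 1.08 CPM at day 2, and 0.893 and 1.45 CPM at day 6. It was 2.34-fold lower at day 2 than at day 0 (edgeR adjusted p = 0.0220), but not without library 76 of day 0 (adjusted p = 0.0843), library 77 of day 0 (0.106) or library 76 of day 2 (0.143). Slc25a14 (UCP5) averaged 3.22 CPM at day 0, 3.76 CPM at day 2 and 3.38 CPM at day 6, and no comparison called it.

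The carriers of tricarboxylic and dicarboxylic acids held the largest increase among members with a day 0 mean above 1 CPM. Slc25a10 (chr11:120491840-120499187, plus strand), which exchanges malate or succinate for phosphate, had 20.6 and 24.4 CPM at day 0, 173 and 149 CPM at day 2, and 802 and 753 CPM at day 6. It was 7.17-fold higher at day 2 than at day 0 (log2 2.84, SE 0.12, edgeR adjusted p = 7.52e-07) and 34.6-fold higher at day 6 than at day 0 (log2 5.11, SE 0.13, edgeR adjusted p = 2.83e-08). No library of a later day overlapped an earlier day. Slc25a1 (chr16:17925223-17928219, minus strand), the citrate carrier, had 118 and 116 CPM at day 0, 149 and 147 CPM at day 2, and 890.0 and 772 CPM at day 6. Most of its change fell after day 2: it was 5.61-fold higher at day 6 than at day 2 (log2 2.49, SE 0.093, edgeR adjusted p = 3.36e-07), and 1.26-fold higher at day 2 than at day 0 (edgeR adjusted p = 0.00956). That early call was lost without library 76 of day 0 (adjusted p = 0.0561) or of day 2 (0.0585).

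Slc25a11, the oxoglutarate/malate carrier of the malate-aspartate shuttle, had 65.0 and 68.1 CPM at day 0, 81.4 and 78.4 CPM at day 2, and 240.2 and 203 CPM at day 6. It was 3.33-fold higher at day 6 than at day 0 (log2 1.74, SE 0.093, edgeR adjusted p = 1.00e-06). Its step at day 2 against day 0 (1.20-fold, edgeR adjusted p = 0.0321) was lost without library 76 of day 0 (adjusted p = 0.170), library 76 of day 2 (0.138) or library 77 of day 2 (0.0720). Other genes overlap 8.92% of its exon length on the opposite strand, 6.60% of that of Slc25a10, 6.33% of Slc25a37 and 7.06% of Slc25a46, and whether the counting used strand is not stated in the labels. Slc25a21, the oxodicarboxylate carrier, stayed near the limit of counting with 0.265 and 0.618 CPM at day 0, 0.238 and 0.252 CPM at day 2, and 0.804 and 0.648 CPM at day 6. It did not pass the joint test (edgeR adjusted p = 0.0556). Its higher level at day 6 than at day 2 (2.94-fold, edgeR adjusted p = 0.0274) is among the calls counted above, but was lost with DESeq2 (adjusted p = 0.131), with library totals (0.0704) and without library 76 of day 2 (0.118), library 77 of day 2 (0.103) or library 76 of day 6 (0.125).

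The aspartate/glutamate carriers were lower at each later day, and the main glutamate carrier was higher. Slc25a12 (aralar; chr2:71271063-71367749, minus strand), which exchanges matrix aspartate for cytosolic glutamate, had 43.3 and 43.0 CPM at day 0, 32.2 and 34.3 CPM at day 2, and 26.0 and 25.0 CPM at day 6. It was 1.69-fold lower at day 6 than at day 0 (log2 -0.76, SE 0.075, edgeR adjusted p = 3.31e-05). Its relative Slc25a13 (citrin; chr6:6041218-6217173, minus strand) had 5.30 and 4.82 CPM at day 0, 2.21 and 2.23 CPM at day 2, and 1.29 and 1.65 CPM at day 6. It was 3.45-fold lower at day 6 than at day 0 (log2 -1.79, SE 0.22, edgeR adjusted p = 0.000107) and 2.28-fold lower at day 2 than at day 0 (edgeR adjusted p = 0.000761). The groups of days 0 and 6 did not overlap for either gene, and the share of all genes without overlap was not counted.

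Slc25a22 (GC1; chr7:141429744-141437892, minus strand), which imports glutamate with protons, had 28.9 and 26.8 CPM at day 0, 45.2 and 40.3 CPM at day 2, and 191 and 172 CPM at day 6. It was 6.51-fold higher at day 6 than at day 0 (log2 2.70, SE 0.092, edgeR adjusted p = 8.44e-08) and 1.54-fold higher at day 2 than at day 0 (edgeR adjusted p = 0.000396). The ratio of Slc25a12 to Slc25a22 per length was 1.23 and 1.31 at day 0, then 0.582 and 0.695 at day 2, and 0.111 and 0.119 at day 6. The day 2 decrease of Slc25a12 (1.30-fold, edgeR adjusted p = 0.00192) was not called without library 77 of day 0 (adjusted p = 0.0875). The further decrease of Slc25a13 at day 6 against day 2 (1.51-fold, edgeR adjusted p = 0.0486) was not called with the library number as a block (adjusted p = 0.0583), without library 76 of day 0 (0.0810), library 76 of day 2 (0.124), library 77 of day 2 (0.127) or library 76 of day 6 (0.214).

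Slc25a15 (ORC1), which exchanges ornithine for citrulline, had 11.2 and 11.4 CPM at day 0, 21.8 and 17.7 CPM at day 2, and 23.4 and 22.7 CPM at day 6. It was 2.03-fold higher at day 6 than at day 0 (log2 1.02, SE 0.12, edgeR adjusted p = 8.20e-05), and 1.74-fold higher at day 2 than at day 0 (edgeR adjusted p = 0.000396). Between day 6 and day 2 it was not called (log2 0.22, edgeR adjusted p = 0.115), but was called higher without library 76 of day 2 (adjusted p = 0.0298). The related Slc25a2 had 0 and 1 counts at day 0, then 0 and 3 at day 2, and 1 and 5 at day 6. The second glutamate carrier, Slc25a18, had 0 and 4 counts at day 0, then 0 and 4 at day 2, and 4 and 1 at day 6. Neither was tested.

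The acylcarnitine carrier and the branched-chain amino acid carrier were both higher at each later day. Slc25a20 (chr9:108662088-108684641, plus strand), which brings acylcarnitines in and carnitine out, had 33.0 and 38.9 CPM at day 0, 60.3 and 58.4 CPM at day 2, and 399.7 and 345 CPM at day 6. It was 10.4-fold higher at day 6 than at day 0 (log2 3.37, SE 0.11, edgeR adjusted p = 7.08e-08), and 6.28-fold higher at day 6 than at day 2 (log2 2.65, SE 0.11, edgeR adjusted p = 4.41e-07). Slc25a44 (chr3:88410498-88425139, minus strand), which imports branched-chain amino acids in brown fat, had 38.3 and 39.6 CPM at day 0, 80.3 and 76.6 CPM at day 2, and 252 and 209.7 CPM at day 6. It was 2.02-fold higher at day 2 than at day 0 (log2 1.01, SE 0.10, edgeR adjusted p = 3.56e-05) and 5.93-fold higher at day 6 than at day 0 (log2 2.57, SE 0.10, edgeR adjusted p = 1.64e-07). Slc25a29, a carrier of basic amino acids, averaged 3.85 CPM at day 0, 4.69 CPM at day 2 and 5.14 CPM at day 6, and no comparison called it (edgeR adjusted p = 0.0706 at day 6 against day 0, and 0.0422 without library 76 of day 6).

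The iron carriers split. Slc25a28 (mitoferrin 2; chr19:43663801-43674881, minus strand), the form of most tissues, peaked at day 2 with 18.4 and 17.9 CPM at day 0, 38.8 and 35.0 CPM at day 2, and 29.9 and 28.0 CPM at day 6. It was 2.03-fold higher at day 2 than at day 0 (log2 1.02, SE 0.087, edgeR adjusted p = 1.90e-05) and 1.60-fold higher at day 6 than at day 0 (edgeR adjusted p = 0.000179). Slc25a37 (mitoferrin 1), known for red-cell precursors, had 32.6 and 36.0 CPM at day 0, 36.8 and 38.3 CPM at day 2, and 18.4 and 20.4 CPM at day 6. It was 1.77-fold lower at day 6 than at day 0 (log2 -0.82, SE 0.091, edgeR adjusted p = 6.35e-05). The ratio of Slc25a37 to Slc25a28 per length was 1.11 and 1.26 at day 0, then 0.591 and 0.681 at day 2, and 0.384 and 0.453 at day 6. The decline of Slc25a28 at day 6 against day 2 (1.27-fold, edgeR adjusted p = 0.00693) was not called without library 76 of day 2 (adjusted p = 0.0613). At day 2 against day 0 Slc25a37 was not called (edgeR adjusted p = 0.211), but it was higher without library 77 of day 0 (0.0304).

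Slc25a39 (chr11:102402985-102407946, minus strand), the mitochondrial glutathione carrier, had 127 and 122 CPM at day 0, 198 and 177 CPM at day 2, and 399 and 352 CPM at day 6. It was 3.03-fold higher at day 6 than at day 0 (log2 1.60, SE 0.095, edgeR adjusted p = 1.71e-06). Its relative Slc25a40 averaged 11.7 CPM at day 0, 17.2 CPM at day 2 and 15.5 CPM at day 6. It was 1.47-fold higher at day 2 than at day 0 (edgeR adjusted p = 0.00425), and its day 6 call against day 0 (edgeR adjusted p = 0.0183) was lost without library 76 of day 0 (adjusted p = 0.104) or of day 6 (0.0666). Slc25a38, which supplies glycine for heme synthesis, averaged 15.4 CPM at day 0, 15.0 CPM at day 2 and 17.4 CPM at day 6, and no comparison called it.

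**Figure D4:**
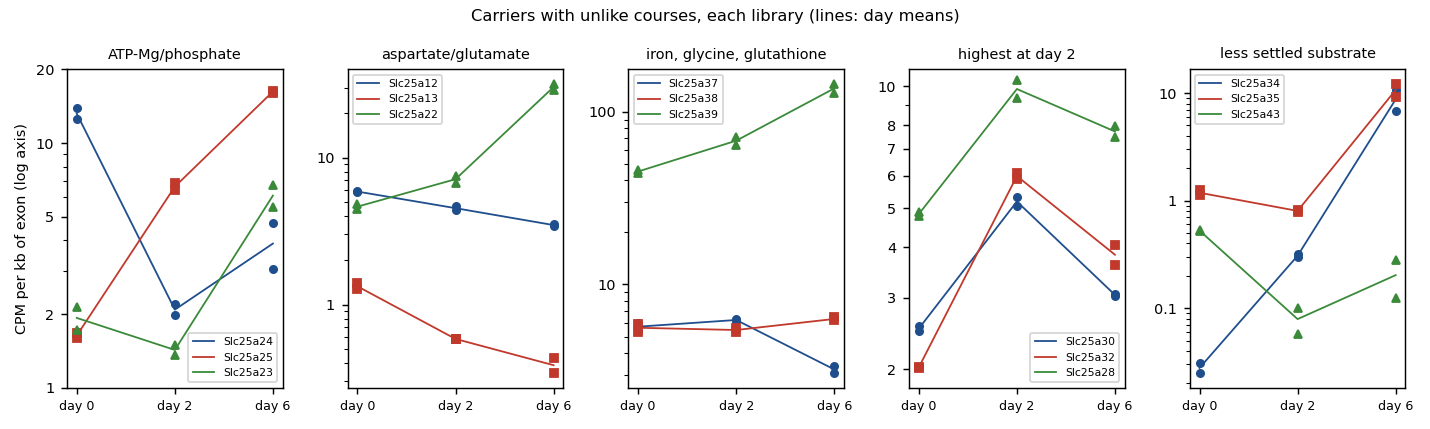
CPM per kb of exon (y axis, log scale, a different range in each panel) at days 0, 2 and 6 for 5 sets of 3 Slc25 genes, with 1 point per library and lines through the day means. Slc25a24 and Slc25a25 cross between day 0 and day 2, Slc25a12 and Slc25a22 cross likewise, and Slc25a28, Slc25a30 and Slc25a32 are highest at day 2.

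Both pyrimidine nucleotide carriers were higher at day 6. Slc25a33 had 2.91 and 3.01 CPM at day 0, 6.15 and 7.05 CPM at day 2, and 11.3 and 9.52 CPM at day 6. It was 3.51-fold higher at day 6 than at day 0 (log2 1.81, SE 0.16, edgeR adjusted p = 1.96e-05), and 14.9% of its exon length is overlapped by another gene on the opposite strand. Slc25a36 averaged 70.8 CPM at day 0, 70.6 CPM at day 2 and 90.9 CPM at day 6. It was 1.28-fold higher at day 6 than at day 0 (edgeR adjusted p = 0.00178), and not with library totals as scaling (adjusted p = 0.152).

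Of the cofactor carriers, all 7 were higher at day 2 than at day 0 and all 7 at day 6 than at day 0. At day 6 against day 2, 6 were higher and 1 lower. Over all genes tested, 33.6% and 35.9% were higher in the first 2 comparisons, and 38.2% were higher and 27.5% lower in the third. Slc25a42, a coenzyme A carrier, had 12.2 and 12.6 CPM at day 0, 29.2 and 26.8 CPM at day 2, and 76.3 and 65.8 CPM at day 6. It was 5.71-fold higher at day 6 than at day 0 (log2 2.51, SE 0.10, edgeR adjusted p = 1.88e-07). Slc25a16, also tied to mitochondrial coenzyme A, had 24.2 and 22.9 CPM at day 0, 33.1 and 32.8 CPM at day 2, and 99.4 and 87.6 CPM at day 6, and was 3.97-fold higher at day 6 than at day 0 (edgeR adjusted p = 2.56e-07).

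Slc25a26 imports S-adenosylmethionine, the methyl donor of the matrix. It had 6.69 and 7.21 CPM at day 0, 9.89 and 8.84 CPM at day 2, and 33.4 and 29.5 CPM at day 6, and was 4.53-fold higher at day 6 than at day 0 (log2 2.18, SE 0.12, edgeR adjusted p = 9.51e-07). The smaller change at day 2 against day 0 (1.35-fold, edgeR adjusted p = 0.0125) was lost without library 76 of day 0 (adjusted p = 0.0835) or of day 2 (0.0794). Slc25a51, the mitochondrial NAD carrier, had 88.1 and 91.1 CPM at day 0, 168 and 169 CPM at day 2, and 302 and 258 CPM at day 6, and was 3.13-fold higher at day 6 than at day 0 (log2 1.65, SE 0.09, edgeR adjusted p = 1.13e-06). Slc25a17, which sits in the peroxisome membrane and carries coenzyme A and related nucleotides, had 47.3 and 47.1 CPM at day 0, 87.4 and 90.4 CPM at day 2, and 128 and 116 CPM at day 6, and was 2.59-fold higher at day 6 than at day 0 (log2 1.37, SE 0.073, edgeR adjusted p = 9.78e-07). Slc25a32, the folate and FAD carrier, was the exception in this class, with 12.2 and 12.4 CPM at day 0, 35.8 and 37.1 CPM at day 2, and 24.6 and 21.98 CPM at day 6. It was 2.96-fold higher at day 2 than at day 0 (log2 1.57, SE 0.09, edgeR adjusted p = 2.78e-06) and then 1.56-fold lower at day 6 than at day 2 (log2 -0.64, SE 0.087, edgeR adjusted p = 0.000250).

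Among the genes with Slc25 symbols, the largest fitted increase at day 6 against day 0 belonged to a carrier whose substrate is less settled. Slc25a34 (chr4:141618824-141623821, minus strand) had 2 and 2 counts at day 0, then 25 and 22 at day 2, and 638 and 365 at day 6, or 0.0662 and 0.0823 CPM at day 0, 0.849 and 0.791 CPM at day 2, and 28.5 and 18.2 CPM at day 6. Both day 0 libraries lie under the floor of 3 counts, which is 0.0993 and 0.124 CPM there, so its fold against day 0 (log2 8.22, edgeR adjusted p = 5.83e-07) is not a firm size. It was 28.3-fold higher at day 6 than at day 2 (log2 4.82, SE 0.27, edgeR adjusted p = 2.00e-06). Slc25a35 (chr11:68968131-68974365, plus strand), its close relative, had 4.14 and 4.57 CPM at day 0, 2.99 and 2.91 CPM at day 2, and 44.9 and 33.7 CPM at day 6. It was 9.06-fold higher at day 6 than at day 0 (log2 3.18, SE 0.16, edgeR adjusted p = 7.27e-07). Another gene, Rangrf, overlaps 31.3% of the exon length of Slc25a35 on the opposite strand. Its lower level at day 2 than at day 0 (1.47-fold, edgeR adjusted p = 0.0322) was lost when any single library of those days was left out (adjusted p = 0.0625 to 0.267).

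Slc25a43 had 28 and 23 counts at day 0, then 3 and 5 at day 2, and 5 and 10 at day 6. It was 6.50-fold lower at day 2 than at day 0 (log2 -2.70, SE 0.51, edgeR adjusted p = 0.00172). Its day 6 call against day 0 (log2 -1.39, edgeR adjusted p = 0.0251) was lost without library 76 of day 0 (adjusted p = 0.0950), library 77 of day 0 (0.0941) or library 76 of day 6 (0.196). Slc25a46, which lies in the outer membrane and takes part in its dynamics, had 32.6 and 33.6 CPM at day 0, 59.6 and 60.8 CPM at day 2, and 105 and 94.0 CPM at day 6, and was 3.01-fold higher at day 6 than at day 0 (log2 1.59, SE 0.076, edgeR adjusted p = 5.42e-07). Slc25a45 averaged 16.6 CPM at day 0, 12.4 CPM at day 2 and 14.5 CPM at day 6; its day 2 call against day 0 (edgeR adjusted p = 0.0387) was lost without library 76 of day 0 (adjusted p = 0.102), library 77 of day 0 (0.309) or library 76 of day 2 (0.257).

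The remaining members of this class stayed low. Slc25a47 averaged 1.92 CPM at day 0, 1.91 CPM at day 2 and 1.70 CPM at day 6, Slc25a53 averaged 4.805 CPM at day 0, 3.78 CPM at day 2 and 4.85 CPM at day 6, and neither was called. Slc25a48 had 0 counts in each day 0 library, 0 and 2 at day 2, and 0 and 1 at day 6. Of the 6 members not tested, none exceeded 5 counts in a library, and a count of 0 allows a level of up to 0.0993 to 0.150 CPM at these depths.

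The family members under other symbols did not move together. Ucp2 had 4.04 and 2.76 CPM at day 0, 13.6 and 12.6 CPM at day 2, and 139.7 and 101 CPM at day 6. It was 34.9-fold higher at day 6 than at day 0 (log2 5.13, SE 0.21, edgeR adjusted p = 2.08e-07). Ucp1 was not counted in either day 0 library and had 13 and 10 counts at day 2, and 1 and 0 at day 6. Its day 2 level was at least 3.60-fold higher than at day 0, taking a floor of 3 counts per library, and its ratio of day 6 to day 2 was 0.0586 (95% exact counting interval 0.00142 to 0.361). The call at day 6 against day 2 (edgeR adjusted p = 0.00818) was lost with DESeq2 (adjusted p = 0.0739) and without library 77 of day 6 (0.0510). Ucp3 had 5.00 and 3.34 CPM at day 6, at least 37.4-fold higher than at day 0, where it had 0 counts.

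Mtch1 and Mtch2 are carrier-like proteins of the outer membrane. Mtch1 had 452 and 449.8 CPM at day 0, 194 and 189.9 CPM at day 2, and 171 and 191 CPM at day 6, and was 2.49-fold lower at day 6 than at day 0 (log2 -1.32, SE 0.082, edgeR adjusted p = 2.30e-06). Mtch2 had 78.5 and 78.1 CPM at day 0, 140.2 and 139 CPM at day 2, and 359 and 311 CPM at day 6, and was 4.28-fold higher at day 6 than at day 0 (log2 2.10, SE 0.088, edgeR adjusted p = 2.53e-07).

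Transporters of the mitochondrial membranes outside the family were counted as a list of 22 genes, of which 21 were tested. At day 2 against day 0, 11 were higher and 7 lower, at day 6 against day 0, 17 were higher and 3 lower, and at day 6 against day 2, 19 were higher and 1 lower. Over all genes tested, 33.6% were higher and 33.6% lower in the first of these comparisons, 35.9% and 35.1% in the second, and 38.2% and 27.5% in the third. As shares of the 21, 52.4% were higher and 33.3% lower at day 2 against day 0, so that the share lower there was close to that over all genes. The 2 subunits of the pyruvate carrier were 17.3-fold (Mpc1, log2 4.11, edgeR adjusted p = 3.75e-07) and 17.1-fold (Mpc2, log2 4.09, edgeR adjusted p = 3.07e-08) higher at day 6 than at day 0. The serine carrier Sfxn1 was 8.62-fold higher at day 6 than at day 0 (log2 3.11, SE 0.11, edgeR adjusted p = 9.06e-08), whereas its relative Sfxn3 was 2.78-fold lower at day 6 than at day 0 (log2 -1.47, SE 0.14, edgeR adjusted p = 2.45e-05). Vdac1, a pore of the outer membrane, was 2.85-fold higher at day 6 than at day 0 (log2 1.51, SE 0.084, edgeR adjusted p = 1.17e-06).

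By the GENCODE annotation, genes on the opposite strand overlap 23.1% of the exon length of Mpc1, and likewise 15.9% of Bcat2 and 14.1% of Aldh1l2 below. Overlaps among genes counted in the lists but not named elsewhere include 61.7% of Bckdha on the opposite strand. On the same strand they include 81.4% of Cpt1b and 16.6% of Smdt1. Enzymes that work beside the carriers were counted from lists as well, at day 6 against day 0, where 35.9% of all genes tested were higher and 35.1% lower. For citrate export and fatty acid synthesis, 8 of 8 genes were higher, as was Slc25a1. ATP-citrate lyase, Acly, had 398 and 425 CPM at day 0, 642 and 679.9 CPM at day 2, and 4556 and 3239 CPM at day 6. Citrate synthase, Cs, was 13.2-fold higher at day 6 than at day 0 (log2 3.72, SE 0.12, edgeR adjusted p = 6.38e-08). For the malate-aspartate and glycerol phosphate shuttles, 6 of 6 were higher, while Slc25a12 and Slc25a13 of that shuttle were lower and Slc25a11 higher. Cytosolic malate dehydrogenase, Mdh1, was 18.6-fold higher at day 6 than at day 0 (log2 4.21, SE 0.12, edgeR adjusted p = 4.26e-08).

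For the carnitine shuttle, 4 of 6 were higher and 2 lower beside the increase of Slc25a20. The inner membrane enzyme Cpt2 had 36.8 and 30.9 CPM at day 0, 73.4 and 76.3 CPM at day 2, and 423 and 362 CPM at day 6. Cpt1a of the outer membrane had 72.2 and 66.7 CPM at day 0, 44.4 and 51.4 CPM at day 2, and 51.3 and 59.6 CPM at day 6, and its lower level at day 6 than at day 0 (log2 -0.33, edgeR adjusted p = 0.0190) was lost without library 76 of day 0 (adjusted p = 0.121) or of day 6 (0.0826). For branched-chain amino acid breakdown, 7 of 8 were higher and 1 lower beside Slc25a44. The mitochondrial transaminase Bcat2 was 16.4-fold higher at day 6 than at day 0 (log2 4.03, SE 0.11, edgeR adjusted p = 3.18e-08), and the cytosolic Bcat1 was 6.23-fold lower at day 6 than at day 0 (log2 -2.64, SE 0.19, edgeR adjusted p = 5.13e-06).

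For heme and iron-sulfur synthesis, 6 of 7 tested were higher and 1 lower. The first enzyme of heme synthesis, Alas1, had 43.3 and 40.6 CPM at day 0, 238 and 259 CPM at day 2, and 825 and 685 CPM at day 6, while its glycine carrier Slc25a38 was not called. For mitochondrial folate metabolism, 1 of 5 was higher and 4 lower at day 6 against day 0. At day 2 against day 0, 0 were higher and 3 lower, where 33.6% of all genes tested were higher and 33.6% lower. Aldh1l2, which oxidises formyl-tetrahydrofolate, had 141 and 114 CPM at day 0, 11.3 and 15.0 CPM at day 2, and 17.1 and 30.1 CPM at day 6, and was 9.69-fold lower at day 2 than at day 0 (edgeR adjusted p = 1.06e-05). For glutathione, 5 of 6 were higher at day 6 than at day 0. Gclc, the catalytic subunit of the first synthetic step, had 27.8 and 29.1 CPM at day 0, 80.4 and 85.4 CPM at day 2, and 34.9 and 33.0 CPM at day 6. Like Slc25a28, Slc25a30 and Slc25a32 it was highest at day 2, being 2.92-fold higher at day 2 than at day 0 (log2 1.54, SE 0.072, edgeR adjusted p = 1.17e-06) and 2.44-fold lower at day 6 than at day 2 (log2 -1.29, SE 0.072, edgeR adjusted p = 1.88e-06). Its call at day 6 against day 0 (1.20-fold higher, edgeR adjusted p = 0.0138) was lost with library totals (adjusted p = 0.914), with DESeq2 (0.0917) and without library 76 of day 0 (0.103).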

How the data were processed

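The deposited table gives 1 column of read counts per library for WT stromal-vascular cells at days 0, 2 and 6. The submitters' processing notes name TopHat2 2.0.13, HTSeq 0.9.1 and the builds mm10 and GRCm38. Neither annotation nor strand setting is given in the sources used here. Although headed RPKM, the values the authors deposited are raw counts: whole numbers, followed by HTSeq's 5 summary lines, which stayed out of library sizes (outside features 2.62% to 3.23%, ambiguous 4.40% to 4.91% and not uniquely aligned 4.16% to 9.05% of alignments). Polyadenylated RNA was fragmented and amplified by PCR without molecular identifiers, so floors and intervals cover counting error only.

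Counts were fitted for all 6 libraries in 1 edgeR 4.0.16 quasi-likelihood model (R 4.3.3) with a mean per day, TMM scaling and filterByExpr, which kept 14459 genes. P-values were adjusted by Benjamini-Hochberg over these genes with a threshold of 0.05, and 3 residual degrees of freedom remained. The step was tested on simulated data in which few genes were changed, in both directions. Far more genes were called in the real comparisons, so that test does not bear on the scaling. Exon lengths, coordinates and overlaps came from GENCODE M21 (GRCm38), promoter windows from RefSeq. Alternatives were library totals, RLE factors, sizes without mitochondrial-genome genes, DESeq2 1.42.0, no filter, at least 1 CPM in 2 libraries, only the days compared, the library number as a block and leaving out each library.

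The numbers 76 and 77 recur on each day. Deviations of same-numbered libraries from their day means, as log2 CPM with a prior count of 2, correlated across genes at r = 0.109 for days 2 and 0, 0.112 for days 6 and 0, and 0.213 for days 6 and 2. Each of these Pearson values exceeded the limit of 0.1, and same-numbered libraries were taken as pairs on that basis. Spearman correlations were 0.0589, 0.0546 and 0.1765 in the same order, so by rank only days 6 and 2 exceeded it. The model above has no term for the number; the fit with it as a block is an alternative, given where it changes a call. Libraries of a day differed beyond sampling noise (chi-square per degree of freedom 7.22 to 28.4). Members and lists were chosen with earlier results of these data known. Every member may be named, except 1 that is not reported here. Values of every library are given for the other members that passed the joint test with a change over 2-fold in a comparison, for the 5 highest per length on each day and for those with 0 counts on some day, and also for Slc25a12, Slc25a21 and Slc25a37, chosen after their values were seen. Genes outside the family come from 9 partner lists; those named from them were chosen after their values were seen.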

Additional observations from a re-analysis of the deposited data

How the results depend on the processing

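Across up to 14 alternatives to each comparison, 1596 values of single members kept their direction and their side of the threshold, 72 kept the direction but were no longer called, 8 became called and 38 changed sign; of the named partner genes, 670 were the same and 10 were no longer called. The counts of members called stayed within 1.5 times. Without a library, its day keeps 1, which is assumed to vary like the other days. With the replicate block, 33, 33 and 30 members were called at day 2 against day 0, day 6 against day 0 and day 6 against day 2 (9847, 10356 and 9669 of all genes), and the block changed no member's call but that of Slc25a13 at day 6 against day 2.

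Signs turned only for members with no call in that comparison. At day 2 against day 0, Slc25a47 came to log2 -0.00032 with the block and -0.010 with the 1 CPM filter, Slc25a36 to 0.0086 without a filter, 0.038 with RLE factors, 0.045 with DESeq2, 0.11 with library totals and 0.14 without mitochondrial-genome genes, and Slc25a38 to 0.000087, 0.0068, 0.071 and 0.10 with the last 4 of these. At day 6 against day 0, Slc25a53 came to -0.018 with RLE factors, -0.018 with DESeq2 and -0.24 with library totals, which also gave -0.18 for Slc25a14 and -0.075 for Slc25a38. At day 6 against day 2, Slc25a29 came to -0.0015 with only the 2 days, -0.23 with library totals and -0.0028 without mitochondrial-genome genes, and library totals gave -0.14 for Slc25a15, -0.15 for Slc25a38 and -0.12 for Slc25a45. Leaving out single libraries gave ranges across 0 at day 2 against day 0 for Slc25a21 (-1.32 to 0.032), Slc25a36 (-0.011 to 0.11), Slc25a38 (-0.12 to 0.18) and Slc25a47 (-0.19 to 0.35), at day 6 against day 0 for Slc25a14 (-0.041 to 0.21), Slc25a47 (-0.36 to 0.045) and Slc25a53 (-0.034 to 0.071), and at day 6 against day 2 for Slc25a29 (-0.0078 to 0.25).

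Library totals moved the median of all genes by 0.11, -0.25 and -0.36 log2 in the 3 comparisons, and the share of calls that were higher to 57.3%, 38.0% and 37.1% of all genes, against 50.01%, 50.6% and 58.1%. For members, that share was 86.2% with DESeq2 against 75.8% at day 2 against day 0, where DESeq2 gave 53.2% for all genes. It was 70.4% with library totals against 80.6% at day 6 against day 2. Leaving out mitochondrial-genome genes moved the median of all genes by 0.14 and -0.13 in these 2 comparisons. Leaving out library 77 of day 0 moved it by 0.15 and -0.14. Fitting only days 6 and 2 moved it by -0.13. At day 6 against day 2 the share for all genes was 49.9% without mitochondrial-genome genes and 49.8% with only the 2 days. At day 6 against day 2, library totals called 3 folate genes in place of 5 and 6 glutathione genes in place of 3. The heme and iron-sulfur list had 3 to 6 genes called at day 2 against day 0 when single libraries were left out, the lowest without library 77 of day 2. The cause was not tested. With 2 libraries a day and low counts, changes of members under about 1 CPM are the least certain.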
